A study of Mus musculus with 9 samples.

Results

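The genes described here make, load, clear and sense the inhibitory transmitters GABA and glycine in the hypothalamus of Clic1 knockout (KO) and wild-type (WT) mice. They were taken by symbol from a fixed list of 27 genes whose rule uses no measured value, although the list was drawn up with results of these data known, and 26 of the 27 had a row among the 14351 genes of the deposited expression table. Gabrd, the delta subunit of the GABA-A receptor, had no row and was not analysed here. The 26 genes fell into 9 roles: GABA synthesis and vesicle loading (Gad1, Gad2, Slc32a1), uptake and breakdown (Slc6a11, Abat), GABA-A receptor alpha subunits (Gabra2, Gabra3, Gabra4, Gabra5), beta subunits (Gabrb1, Gabrb2) and other subunits (Gabrg1, Gabrg3, Gabre, Gabrq), GABA-B receptor (Gabbr1, Gabbr2), glycine receptor (Glra1, Glra2, Glra3, Glrb), synaptic scaffold and adhesion (Gphn, Nlgn2) and the GABARAP family (Gabarap, Gabarapl1, Gabarapl2).

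Hypothalamic RNA of male, chow-fed mice was sequenced, with 5 KO libraries (replicates 2, 4, 6, 8 and 10) and 4 WT libraries (replicates 1, 3, 9 and 11). The deletion of Clic1 was whole-body, so no cell type was targeted, and WT mice were littermates that carried neither a deletion nor a treatment. The sample labels give the strain as C57b/6J, whereas the methods of the study give CD-1 as the background of the colony. The age of the mice is not given in the sources used here. The labels also carry a protocol line on frozen perigonadal adipose tissue, although the tissue is given as hypothalamus. In the table, 0 of 6 adipocyte markers had a row and 13 of 13 hypothalamic markers did. Their summed level was 674 to 809 normalized CPM (read counts scaled to library size) in KO replicates 2, 4, 6 and 8, with replicate 10 at 892 CPM and the WT libraries at 599 to 652 CPM. Of these 13 markers 1, the vasopressin gene Avp, had an adjusted p under 0.05. Nothing in the labels says how the libraries were spread over extraction or sequencing batches.

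Replicate 10 carried conflicting labels and stood apart from the other libraries, so results are given with and without it. Its library name starts with the letter of the KO libraries, while its title and genotype label say WT, and it was grouped as KO by the library name. Clic1, the deleted gene, lies on chromosome 17 from 35049966 to 35058749 (GRCm38, plus strand). It was at 1.93, 1.32, 0.733, 1.25 and 1.43 CPM in KO replicates 2, 4, 6, 8 and 10, and at 5.52, 4.66, 5.3 and 3.58 CPM in WT replicates 1, 3, 9 and 11. Replicate 10 was thus within the range of the other KO libraries for Clic1. Its estimated depth over all 14351 genes was 20.2 M reads, against 5.45 to 11 M for the other 8 libraries. These depths were read from the steps between low values and are approximate. The least abundant of the 26 genes, Glra2, had about 174 to 494 estimated reads per library.

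GABA is made from glutamate in the cytosol of inhibitory neurons, is packed into vesicles, and after release opens GABA-A receptors, which are chloride channels assembled from several kinds of subunit, or activates GABA-B receptors, which signal through G proteins. Glycine opens related chloride channels. GABA is the main inhibitory transmitter of the hypothalamus, and GABA neurons of the arcuate nucleus are known for driving food intake. The product of Clic1, chloride intracellular channel 1, belongs to another protein family.

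Several subunit genes are neighbours in the genome. Gabrg1, Gabra2, Gabra4 and Gabrb1 lie within 1.4 Mb of chromosome 5 (70751047 to 72149037), Gabrg3 and Gabra5 within 0.794 Mb of chromosome 7, and Gabre, Gabra3 and Gabrq within a stretch of chromosome X that starts at 72255999 and ends at 72842602. Gabra4 and Gabrb1 are transcribed away from each other on opposite strands, and their annotated exons overlap by 46 nucleotides. Their promoter windows in RefSeq (250 bases before to 50 after the transcript start, GRCm38.p6) are shown because this pair shares a stretch of genome and yet differed most in level within the cluster. They are read 5′ to 3′ on the strand of each gene, with every CG dinucleotide in capitals.
Gabra4, chr5:71658259-71658558, minus strand: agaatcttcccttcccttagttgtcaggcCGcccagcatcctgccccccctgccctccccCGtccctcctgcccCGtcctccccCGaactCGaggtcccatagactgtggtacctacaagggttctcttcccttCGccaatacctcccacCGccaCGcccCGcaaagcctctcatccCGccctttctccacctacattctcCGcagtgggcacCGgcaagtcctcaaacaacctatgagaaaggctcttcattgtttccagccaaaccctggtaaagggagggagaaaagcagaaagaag
Gabrb1, chr5:71657671-71657970, plus strand: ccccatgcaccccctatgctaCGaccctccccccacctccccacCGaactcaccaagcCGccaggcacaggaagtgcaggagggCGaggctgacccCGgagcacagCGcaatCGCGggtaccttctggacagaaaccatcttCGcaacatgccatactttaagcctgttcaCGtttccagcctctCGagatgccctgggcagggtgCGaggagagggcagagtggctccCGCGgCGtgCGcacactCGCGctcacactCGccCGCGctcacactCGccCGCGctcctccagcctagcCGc
The Gabrb1 window held 25 CG and a GC content of 66%, and the Gabra4 window held 12 CG and a GC content of 58.7%. As many CG or more were found in 18.4% and 39.6%, respectively, of the 32851 promoter windows of all genes. The windows are 288 bases apart. The Gabrb1 window lies inside the annotated Gabra4 gene (71569749 to 71658308) and ends before the start of Gabrb1 in GENCODE (71658113). Of the 26 genes, 24 had at least 1 window, 28 windows in all, with a median of 13.5 CG against 7 over all windows. In 19 of the 28 windows (67.9%) there were 10 or more CG, compared with 43.5% of all windows.

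Levels of different genes were compared as CPM per kb of exon, averaged over the 9 libraries. They spanned 34.4-fold, from Gabarapl1 at 220 CPM per kb to Gabra4 at 6.39 CPM per kb. Gabarapl1, a ubiquitin-like protein of receptor traffic and autophagy, was followed by Slc6a11, a GABA transporter found mainly on astrocytes (191 CPM per kb), Gabbr1, the subunit of the GABA-B receptor that binds GABA (116 CPM per kb), Abat, the mitochondrial transaminase that breaks GABA down (86.3 CPM per kb), and Gad2, a glutamate decarboxylase (76.1 CPM per kb). In 1 of the 25 neighbouring pairs of this order, Gabbr1 above Abat, the values of the 9 libraries did not overlap. In 9 of the 25 pairs the gene with the higher mean was higher within each of the 9 libraries, and among these were Gabarapl1 over Slc6a11, Gad2 over Nlgn2 and Glra3 over Gabra4. In the remaining pairs the gene with the higher mean was not higher in each of the 9 libraries. Dividing by the longest transcript in place of all exons kept 4 of the 5 leading genes.

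**Figure D1:**
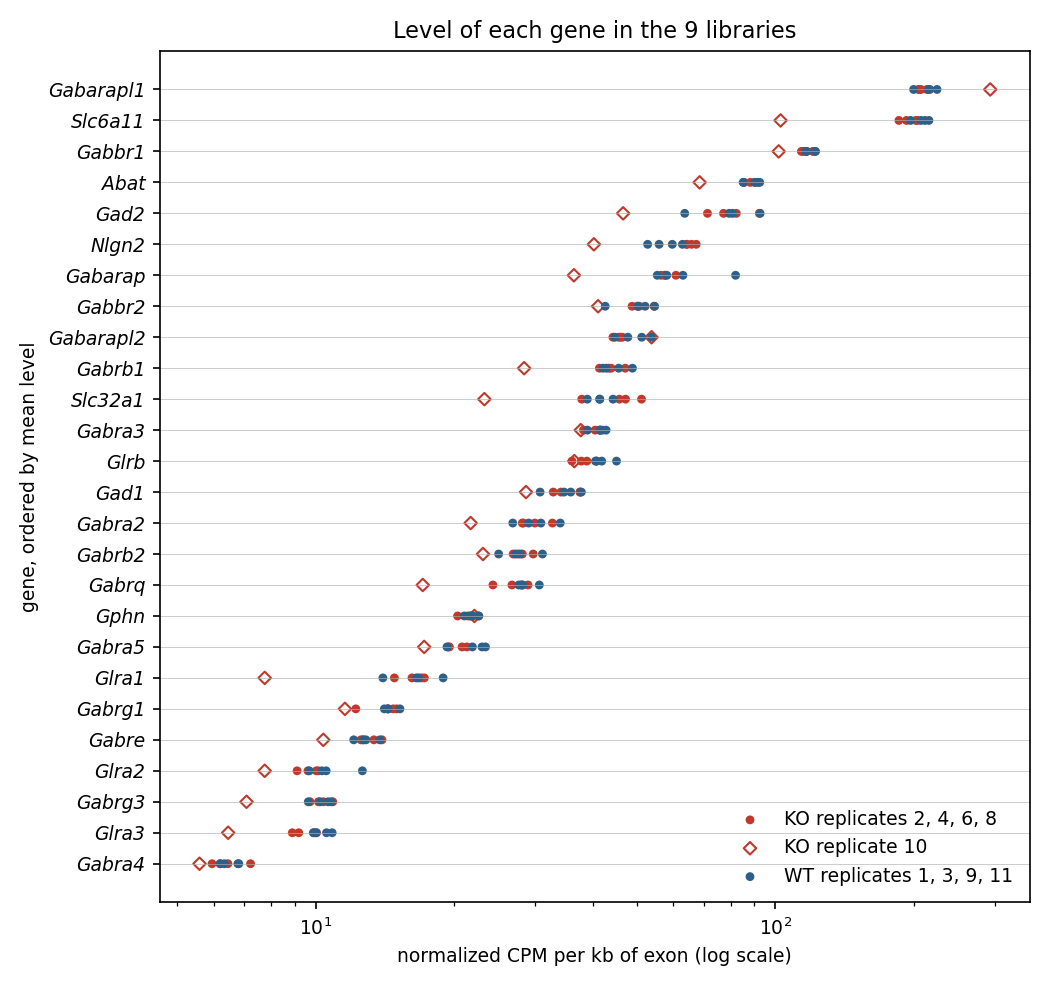
Normalized CPM per kb of exon (log axis) of each gene in each library, with genes ordered by their mean over the 9 libraries. Filled circles are KO (red) and WT (blue) libraries and open diamonds KO replicate 10, which was the lowest library for 22 of the 26 genes and the highest for Gabarapl1 (293 CPM per kb) and Gabarapl2 (53.8 CPM per kb).

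Within the roles, GABA-A alpha subunits ranged from 40.6 CPM per kb for Gabra3 to 6.39 CPM per kb for Gabra4, with Gabra2 at 29.1 and Gabra5 at 20.7 CPM per kb. Gabrb1 was at 42.6 CPM per kb and Gabrb2 at 27.4 CPM per kb, but per kb of the longest transcript their order reversed, at 42.9 and 43.7 CPM per kb. The theta subunit gene Gabrq, at 26.6 CPM per kb, and the epsilon subunit gene Gabre, at 12.7 CPM per kb, stood beside Gabrg1 at 14 CPM per kb and Gabrg3 at 9.94 CPM per kb. The head-to-head pair differed in level, with Gabrb1 6.87 ± 0.25 times as high per kb as Gabra4 in WT (SD, n = 4) and 6.48 ± 0.839 times in KO (SD, n = 5), or 4.67 ± 0.17 times per kb of the longest transcript in WT (SD, n = 4). Glrb, the beta subunit of the glycine receptor that binds the scaffold gephyrin, was at 39.8 CPM per kb, above each alpha subunit of that receptor (Glra1 15.5, Glra2 9.98 and Glra3 9.54 CPM per kb). The ratio of Gad1 to Gad2 per kb was 0.444 ± 0.0328 in WT (SD, n = 4), 0.408 to 0.462 in KO replicates 2, 4, 6 and 8 and 0.614 in KO replicate 10. Per kb of the longest transcript the same ratio was 0.921 ± 0.068 in WT (SD, n = 4), 0.846 to 0.958 in KO replicates 2, 4, 6 and 8 and 1.27 in KO replicate 10, so the size of the gap between Gad1 and Gad2 depends on the length used.

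The comparison of KO with WT asked which hypothalamic transcripts differ in mice without Clic1. None of the 26 genes passed the threshold in limma (adjusted p under 0.05 over all 14351 genes), and 41 genes, 0.286% of those tested, did. The lowest adjusted p among the 26 was 0.72. With KO replicate 10 left out, again 0 of 26 passed, against 87 genes or 0.606% of all tested, and the lowest adjusted p was 0.184. At an unadjusted p under 0.05 there was 1 gene, Glrb, against 6.5% of all genes, and without KO replicate 10 there were 2, Glrb and Nlgn2, against 10.5% of all genes. KO and WT libraries overlapped for each of the 26 genes, while 3.41% of all genes showed no overlap. With that library left out the groups did not overlap for 1 gene, Nlgn2, against 6.06% of all genes. The counts at an unadjusted p and without overlap, 0 to 2 of 26 genes, were near the share over all genes. They are not read as a difference from that share.

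The intervals, taken for each gene on its own, describe the size of the differences with replicate 10 as KO or left out. With replicate 10 placed in WT, fold changes ran from -0.14 to 0.29, and intervals are not given here. The 95% interval of the KO-minus-WT difference in log2(CPM + 0.1) lay within 0.5 of zero for 22 of the 26 genes. The lowest lower bound was that of Glra1, -0.68 or 0.624-fold, and the highest upper bound that of Slc32a1, 0.34 or 1.26-fold. Leaving out KO replicate 10, intervals for 26 of 26 genes lay within 0.5 of zero and those for 24 within 0.3, with bounds from -0.33 (Gabarap, 0.793-fold) to 0.29 (Nlgn2, 1.22-fold). The median SE of the difference was 0.10 with replicate 10 and 0.06 without it.

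**Figure D2:**
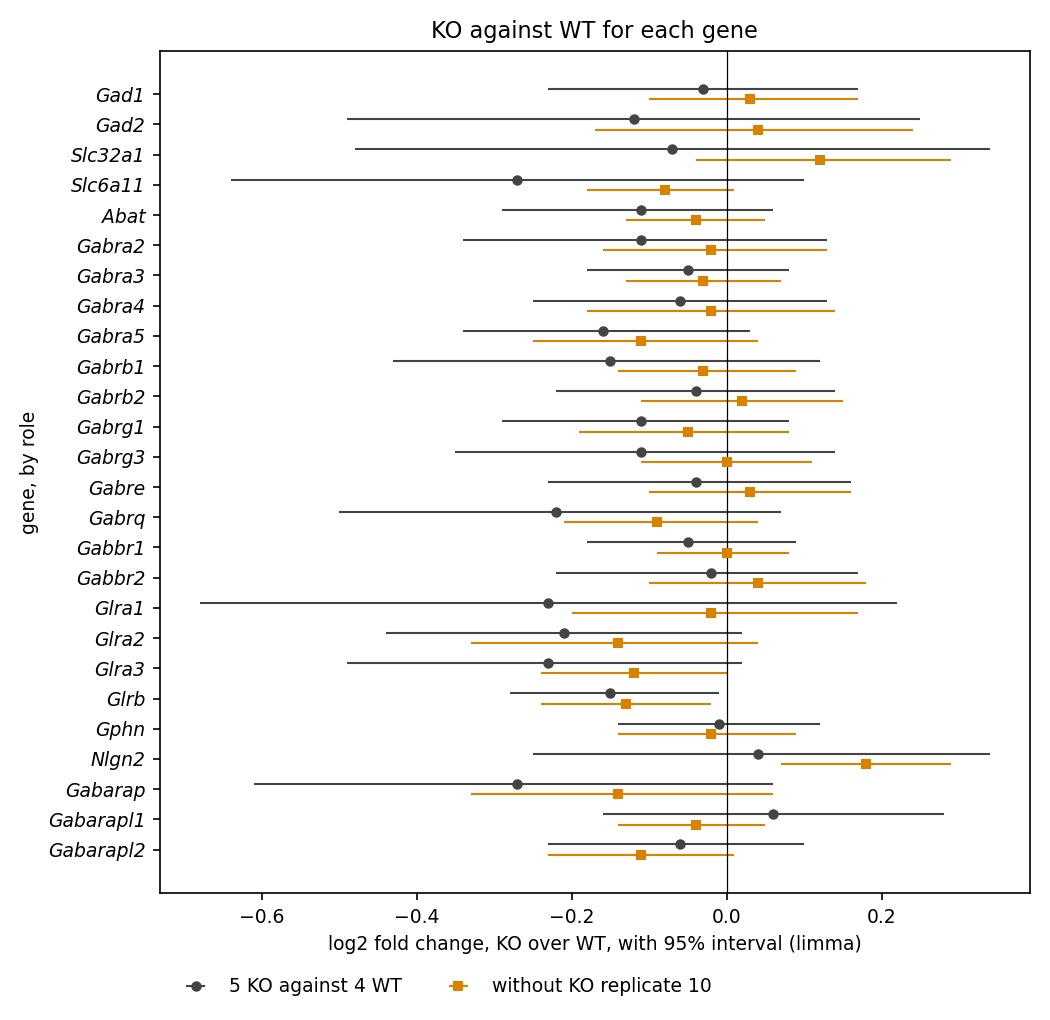
Log2 fold change of KO over WT with its 95% interval from limma for each gene, ordered by role, for 5 KO against 4 WT libraries (grey circles) and without KO replicate 10 (orange squares). Intervals were narrower without replicate 10 and then lay within 0.5 of 0 for 26 of 26 genes, and those of Glrb and Nlgn2 did not include 0.

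The direction of the fitted differences was counted with each grouping of replicate 10. The fold change was below 0 for 24 of the 26 genes, with a median of -0.106 and a range of -0.27 to 0.06, while 49.6% of all genes were below 0 and their median was 0.001. In the 8 libraries without KO replicate 10 it was below 0 for 19 of 26 genes, against 50.7% of all genes, with a median of -0.025 (range -0.14 to 0.18). With replicate 10 placed in WT, as its title says, 7 of 26 were below 0 and the median was 0.051 (range -0.14 to 0.29), and again 0 of 26 genes passed the threshold. WT replicate 3 bore on this count as well, since it was the highest library for 13 of the 26 genes, while it was the highest for 11.5% of all genes. When WT replicate 3 was left out, 20 of 26 were below 0 and the median was -0.050. In these bulk libraries, fewer cells of a type and less RNA per cell cannot be told apart.

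Across libraries, the median deviation of the 26 genes from the WT mean was -0.37 (log2) in KO replicate 10, with a range of -1.08 to 0.46, and -0.09 to 0.05 in the other 8 libraries. Over all genes the median deviation of replicate 10 was 0.009. Replicate 10 was the lowest of the 9 libraries for 22 of the 26 genes, compared with 28.3% of all genes. The 4 exceptions were Glrb, where it was the second lowest, Gphn, and Gabarapl1 and Gabarapl2, where it was the highest. Against the mean of the other 4 KO libraries, Glra1 stood at 0.476-fold, Slc32a1 at 0.512-fold, Slc6a11 at 0.524-fold, Gad2 at 0.578-fold, Nlgn2 at 0.617-fold and Gabarap at 0.629-fold in replicate 10, whereas Gabra3 stood at 0.934-fold, Gphn at 1.03-fold and Gabarapl1 at 1.41-fold. Subunit genes of the same receptor class differed in this library, with Glrb at 0.949-fold beside Glra1, and Gabrb1 at 0.645-fold beside Gabra4 at 0.867-fold. Whether these subunits assemble with each other was not tested.

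**Figure D3:**
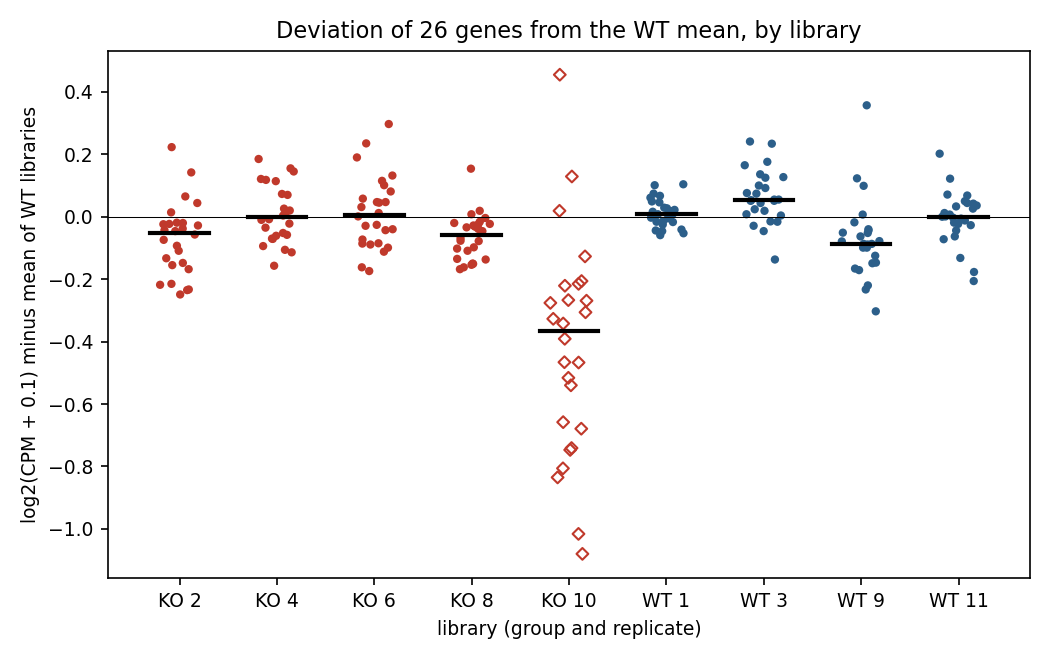
Deviation of log2(CPM + 0.1) from the mean of the WT libraries, 1 point per gene for 26 genes in each library, with black bars at the median over genes. KO replicate 10 (open diamonds) had a median of -0.37 and the other libraries medians between -0.09 (WT replicate 9) and 0.05 (WT replicate 3).

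Some marker lists of regions and cell types differed in replicate 10 as well, and the median marker of others moved little. The part of these lists in the values above was not tested. Summed thalamic markers were at 250 CPM in replicate 10, whereas KO replicates 2, 4, 6 and 8 were at 313 to 331 CPM and WT at 287 to 343 CPM (5 of 5 measured). Cortical and hippocampal markers were at 225 CPM against 281 to 297 and 278 to 297 CPM (5 of 5 measured), and striatal markers at 98.6 CPM against 111 to 118 and 110 to 122 CPM (6 of 6 measured). These sums rest on the abundant markers of each list. The median marker of replicate 10 differed from the mean of the other KO libraries by -0.30 (log2) for the thalamic and -0.19 for the cortical list, but by 0.04 for the striatal list, of which 3 of 6 were higher in replicate 10, and by -0.06 for the hypothalamic list, of which 6 of 13 were higher. Pan-neuronal markers were at 2770 CPM against 2829 to 2947 and 2788 to 3209 CPM (5 of 5 measured). Of these 5 markers, 1 was higher in replicate 10 than the mean of the other KO libraries, with a median difference of -0.07 (log2). Of 3 glutamatergic vesicular transporters, Slc17a7 had no row, and Slc17a6 and Slc17a8 summed to 344 CPM in replicate 10, 351 to 389 CPM in the rest of the KO group and 399 to 422 CPM in WT. This sum was thus lower in each KO library than in each WT library, although neither gene passed the threshold. Of these 2 genes, 1 was higher in replicate 10 than the mean of the other KO libraries, with a median difference of -0.05 (log2). Astrocyte markers were at 1621 CPM in replicate 10 (5 of 5 measured), above KO replicates 2, 4, 6 and 8 (1387 to 1456 CPM) and WT (1442 to 1591 CPM). Of these 5 markers, 3 were higher in replicate 10 than the mean of the other KO libraries, with a median difference of 0.12 (log2). Oligodendrocyte markers were at 3206 CPM, against 3441 to 3723 and 3507 to 4315 CPM (5 of 5 measured). The oligodendrocyte sum was lower in replicate 10 although 3 of the 5 markers were higher there than the mean of the other KO libraries, with a median difference of 0.44 (log2). Endothelial markers (4 of 4 measured) were at 163 to 183 CPM in all KO and 147 to 154 CPM in WT libraries. The sums for microglia (125 to 147 CPM in KO, 137 to 167 CPM in WT, 5 of 5 measured), ependymal cells (28.6 to 36.9 and 30.6 to 38.7 CPM, 4 of 4 measured) and the pituitary (5.25 to 16.3 and 12 to 27 CPM, 3 of 5 measured, without Prl and Gh) overlapped between the groups. Replicate 10 had the highest endothelial sum (183 CPM) and the lowest microglial sum (125 CPM) of the 9 libraries. Its median difference from the mean of the other KO libraries was 0.31 (log2) for endothelial markers, with 3 of 4 higher. It was -0.26 for microglia (2 of 5 higher), 0.04 for ependymal cells (2 of 4) and -0.39 for the pituitary (0 of 3).

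Synthesis and vesicle loading differed little between KO and WT. Gad2 (chromosome 2, 22622205 to 22693874, plus strand) was at 453, 483, 542, 418 and 274 CPM in KO replicates 2, 4, 6, 8 and 10 and at 466, 544, 373 and 474 CPM in WT replicates 1, 3, 9 and 11. The groups overlapped, with the single lowest value in KO replicate 10 and the next lowest in WT replicate 9. The log2 fold change was -0.12 (SE 0.17, adjusted p = 0.917 in limma, exact permutation p = 0.635) and 0.04 (SE 0.09, adjusted p = 0.941) without KO replicate 10. Gad1, the other glutamate decarboxylase gene, had a fold change of -0.03, and Slc32a1, the vesicular transporter that loads GABA and glycine, one of -0.07. When KO replicate 10 was left out, the 3 genes were at 0.03 to 0.12. Slc32a1 was at 128, 132, 143, 106 and 65.1 CPM in KO and at 116, 124, 109 and 116 CPM in WT, so KO libraries lay on both sides of the WT range. An antisense gene, Gm14205, overlaps 697 nucleotides of the Slc32a1 exons. It had no row in the table, and whether reads were counted by strand is not given in the sources used here.

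Of the genes for uptake and breakdown, Slc6a11 (chromosome 6, 114131241 to 114249952, plus strand) was at 1020, 973, 1027, 937 and 518 CPM in KO and at 1046, 1089, 993 and 1067 CPM in WT. KO replicate 10 was far below all others, KO replicates 2 and 6 lay within the WT range, and KO replicates 4 and 8 below it. The log2 fold change was -0.27 (SE 0.17, adjusted p = 0.829 in limma, exact permutation p = 0.159), and -0.08 (SE 0.05, adjusted p = 0.557) without KO replicate 10. Abat differed by -0.11 (SE 0.08, adjusted p = 0.857 in limma), and by -0.04 (SE 0.04) without KO replicate 10.

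GABA-A receptor subunits had fold changes of -0.16 (Gabra5) to -0.05 (Gabra3) for the 4 alpha, -0.15 and -0.04 for the 2 beta and -0.22 (Gabrq) to -0.04 (Gabre) for the other 4 subunits. When KO replicate 10 was left out, these were -0.11 to -0.02, -0.03 to 0.02 and -0.09 to 0.03. Gabra3 (chromosome X, 72432681 to 72656848, minus strand) was at 150, 163, 163, 159 and 148 CPM in KO and at 165, 168, 153 and 163 CPM in WT. All but KO replicates 2 and 10 lay within the WT range, and the difference was -0.05 (SE 0.06, adjusted p = 0.9 in limma, exact permutation p = 0.254) or, without KO replicate 10, -0.03 (SE 0.05, adjusted p = 0.895).

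Gabrb1 (chromosome 5, 71658113 to 72149037, plus strand) was at 601, 652, 573, 608 and 393 CPM in KO and at 631, 676, 583 and 593 CPM in WT. KO replicate 10 was far below the WT range and KO replicate 6 just below it, while the other 3 lay inside it. Its fold change was -0.15 (SE 0.13, adjusted p = 0.862 in limma, exact permutation p = 0.437) and -0.03 (SE 0.05, adjusted p = 0.914) without that library. Its neighbour Gabra4 was at -0.06 (SE 0.09), and at -0.02 (SE 0.07) without it. Gabrq (chromosome X, 72825178 to 72842602, plus strand) was at 130, 155, 143, 150 and 91.5 CPM in KO and at 164, 150, 148 and 151 CPM in WT. KO replicates 2, 6 and 10 lay below the WT range, and the groups overlapped through KO replicates 4 and 8. The fold change of Gabrq was -0.22 (SE 0.13, adjusted p = 0.828 in limma, exact permutation p = 0.198), and -0.09 (SE 0.06, adjusted p = 0.664) without KO replicate 10.

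Both GABA-B receptor genes were near 0. Gabbr1 was at 945, 884, 936, 892 and 789 CPM in KO and at 906, 907, 905 and 949 CPM in WT, with KO replicates 2 and 6 inside the WT range and the other 3 below it. It differed by -0.05 (SE 0.06, adjusted p = 0.912 in limma, exact permutation p = 0.54), and its interval without KO replicate 10 ran from -0.09 to 0.08 (adjusted p = 0.986). Gabbr1 is the only one of the 26 genes on the chromosome of Clic1 (chromosome 17, 37045966 to 37075067, plus strand), 1.99 Mb away from it. Gabbr2, whose product couples the receptor to its G protein, differed by -0.02 (SE 0.09), and by 0.04 (SE 0.07) without KO replicate 10.

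The 4 glycine receptor genes had fold changes of -0.23 to -0.15 and, without KO replicate 10, of -0.14 to -0.02. Glrb (chromosome 3, 80843599 to 80913660, minus strand) was at 168, 181, 190, 176 and 170 CPM in KO and at 195, 210, 189 and 190 CPM in WT. Its groups overlapped only through KO replicate 6, which reached the level of WT replicates 9 and 11, and replicate 10 lay among the other KO libraries. The mean was 177 ± 8.88 CPM in KO (SD, n = 5) and 196 ± 9.67 CPM in WT (SD, n = 4). The log2 fold change was -0.15 (SE 0.06, 95% interval -0.28 to -0.01), with an unadjusted limma p = 0.0328, an adjusted p = 0.72 and an exact permutation p = 0.0317. Over the other 8 libraries it was -0.13 (SE 0.05, 95% interval -0.24 to -0.02), with an unadjusted limma p = 0.0216, an adjusted p = 0.356 and an exact permutation p = 0.0857. With replicate 10 placed in WT the fold change of Glrb was -0.09 (unadjusted p = 0.214 and adjusted p = 0.8 in the limma model across all genes). The difference passed the threshold in none of these 3 fits.

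Of the channel-forming alpha subunits, Glra3 was at 81.9, 91.3, 92.5, 84.6 and 59.4 CPM in KO and at 92.2, 100, 91 and 97.2 CPM in WT, and Glra2 at 28.7, 30.3, 31.9, 31.6 and 24.4 CPM in KO and at 32.5, 39.8, 30.5 and 33.2 CPM in WT. WT replicates 1 and 9 lay within the KO range for Glra3, and WT replicate 9 for Glra2. Their adjusted p was 0.788 each in limma, with fold changes of -0.23 (SE 0.12) and -0.21 (SE 0.11), and of -0.12 (SE 0.06) and -0.14 (SE 0.09) without KO replicate 10. Glra1 was at 41.6, 39.1, 41, 35.8 and 18.7 CPM in KO and at 40, 40.4, 33.8 and 45.7 CPM in WT. Its fold change of -0.23 (SE 0.21) was -0.02 (SE 0.09) without KO replicate 10.

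At the inhibitory synapse, Gphn, the gene of the scaffold gephyrin, was the gene with the smallest difference, -0.01 (SE 0.06, adjusted p = 0.975 in limma), and -0.02 (SE 0.05) without KO replicate 10. Nlgn2 (chromosome 11, 69823122 to 69837784, minus strand), a postsynaptic adhesion protein of inhibitory synapses, was at 389, 371, 380, 371 and 233 CPM in KO and at 345, 323, 305 and 363 CPM in WT. KO replicates 2, 4, 6 and 8 were all above the WT libraries and KO replicate 10 was below them. The fold change was 0.04 over all libraries (SE 0.14, adjusted p = 0.967 in limma, exact permutation p = 0.881). With replicate 10 left out, the means were 378 ± 8.64 CPM in KO and 334 ± 25 CPM in WT (SD, n = 4 each), a log2 fold change of 0.18 (SE 0.05, 95% interval 0.07 to 0.29). The unadjusted limma p was then 0.00339, the adjusted p 0.184 and the exact permutation p 0.0286, which is the smallest that 4 against 4 libraries allow. With replicate 10 placed in WT the fold change was 0.28 (unadjusted p = 0.0221 and adjusted p = 0.684 in the limma model across all genes). The difference of Nlgn2 passed the threshold in none of these 3 fits.

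The GABARAP family encodes ubiquitin-like proteins that bind GABA-A receptors and act in autophagy. Gabarapl1 (chromosome 6, 129533160 to 129542346, plus strand) was at 414, 412, 430, 417 and 590 CPM in KO and at 433, 436, 402 and 452 CPM in WT. KO replicate 10 was far above all others, and the other 4 KO values lay inside the WT range. The fold change was 0.06 (SE 0.10, adjusted p = 0.932 in limma, exact permutation p = 0.897) and -0.04 (SE 0.04, adjusted p = 0.814) without KO replicate 10. Gabarap was at 106, 112, 104, 106 and 67.2 CPM in KO and at 116, 107, 151 and 102 CPM in WT, with its highest value in WT replicate 9 and its lowest in KO replicate 10. Its fold change was -0.27 (SE 0.15, adjusted p = 0.822), and -0.14 (SE 0.09) without KO replicate 10. The ratio of Gabarapl1 to Gabarap per kb was 8.04 in KO replicate 10, 3.37 to 3.78 in the other KO libraries and 2.44 to 4.06 in WT. Gabarapl2 differed by -0.06 (SE 0.08), and by -0.11 (SE 0.06) without KO replicate 10. Its value is uncertain because the 3 genes Gm3724, Gm5829 and Gm6051 match its longest transcript at 96.6% to 99.4% identity over 349 to 352 nucleotides, and Gabarapl1 shares 570 nucleotides of exon with the opposite-strand gene 1700101I11Rik. None of these 4 genes had a row in the table.

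**Figure D4:**
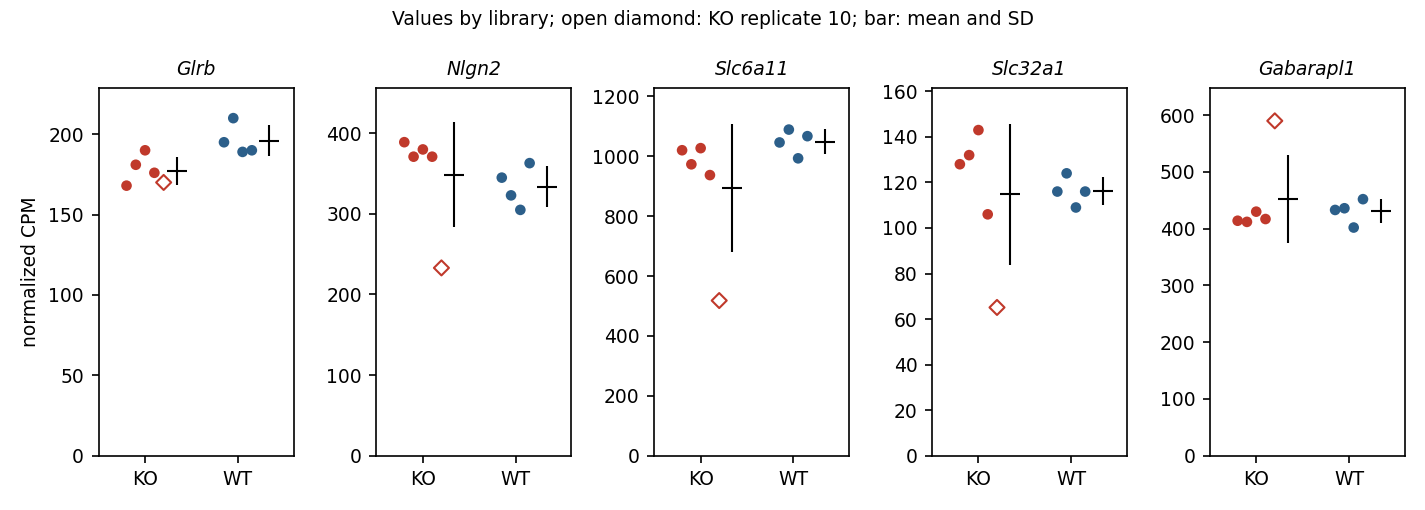
Normalized CPM of Glrb, Nlgn2, Slc6a11, Slc32a1 and Gabarapl1 in each KO (red) and WT (blue) library, with KO replicate 10 as an open diamond and black bars for the mean and SD of each group (n = 5 KO, 4 WT). Replicate 10 lay within the KO group for Glrb (170 CPM), below all other libraries for Nlgn2, Slc6a11 and Slc32a1, and above them for Gabarapl1 (590 CPM).

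Other genes of the pathway were read from 4 lists. The first held genes of other GABA and glycine transport and metabolism (11 of 12 measured), the second receptor auxiliary and traffic genes (18 of 22 measured). The third held autophagy genes linked to the GABARAP family, among them those of the ATG8 conjugation system (13 of 13 measured). The fourth held transcription factors of GABA neurons (8 of 9 measured). None of these genes passed the threshold in limma, with or without KO replicate 10. The median fold changes of the lists were 0.01, -0.01, 0.01 and 0.01, beside 0.001 over all genes, and 0.05, 0.02, -0.02 and 0.09 without KO replicate 10. At an unadjusted p under 0.05 the first list held no gene, the second 1 lower gene, the third 1 higher gene and the fourth none, where 6.5% of all genes were at that p in either direction. Leaving out KO replicate 10 gave 1, 4, 1 and 1 higher genes and 0, 1, 0 and 0 lower genes, where 10.5% of all genes were at that p in either direction. The 4 higher auxiliary genes, named after their values were seen, were Hap1, Iqsec3, Lhfpl4 and Kctd12 at 0.09 to 0.17, and the others were Slc6a13, Map1lc3a and Dlx1, with adjusted p of 0.255 to 0.467 over all 7 in limma.

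The lower gene was Dynll1, a dynein light chain that binds gephyrin, at 118, 124, 121, 112 and 111 CPM in KO and at 137, 135, 146 and 121 CPM in WT. Its groups overlapped through WT replicate 11 and KO replicate 4. The fold change was -0.20 (SE 0.07, adjusted p = 0.596 in limma), and -0.18 (SE 0.06, adjusted p = 0.26) without KO replicate 10. The higher gene was Map1lc3a, of the related LC3 branch of the ATG8 family, at 60.4, 52.5, 72.3, 71.9 and 95.7 CPM in KO and at 50.9, 50.7, 66.6 and 48.1 CPM in WT. As for Gabarapl1, its highest value was that of KO replicate 10. The fold change of Map1lc3a was 0.37 (SE 0.16, adjusted p = 0.745 in limma), and 0.25 (SE 0.11, adjusted p = 0.445) without KO replicate 10.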

How the data were processed

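RNA sequencing of mouse hypothalamus was analysed from 9 libraries, 5 Clic1 KO and 4 WT, grouped by the sample labels (replicate 10 by its library name). The authors trimmed reads with Trimmomatic 0.38 after FastQC 0.11.8, aligned them to GRCm38.p6 with STAR 2.5.1a, estimated counts per gene with RSEM 1.3.0 on Ensembl 98, kept genes with at least 1 CPM in at least 5 samples and scaled them by TMM in edgeR. The deposited signal is this normalized CPM, so values of 1 library depend on its TMM factor. In RSEM, a read that fits several genes is shared out among them. Their table of the comparison was used only for gene symbols, and its log2 fold changes, mean levels and p-values were not used. In addition, 1 column of values matched no sample and was not used.

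Values were transformed to log2(CPM + 0.1), which understates differences of low genes, before a two-sided limma fit (version 3.58.1, R 4.3.3, lmFit and eBayes with trend) with condition as the only term. Genes passed at an adjusted p under 0.05, by the Benjamini-Hochberg method over 14351 genes. Two-sided exact permutation tests (scipy 1.17.1) compared mean log2 values, with a smallest possible p of 0.0286 for 4 against 4 libraries. The labels do not name the animal behind each library, so p-values measure the spread between these libraries. The fit was also run on simulated data with the same noise in each library. That run did not cover a library that stands apart, such as replicate 10. Estimated depths took the step between values up to 2.5 CPM as 1 read, and 81.3% to 86.5% of these values were whole within 0.03 reads, too few to recover counts. Positions and exon lengths came from GENCODE mouse release 21 on GRCm38, near-identical transcripts from blastn 2.17.0 and promoters from RefSeq on GRCm38.p6.

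The 27 genes and all lists were chosen with earlier results of these data known. Values in each library and full statistics are given for genes with an unadjusted p under 0.05 or without overlap of the groups, and for the gene of each role with the highest level per kb. Slc32a1, Glra1, Glra2, Glra3 and Gabarap were also given by library, a choice made after their values were seen. Alternatives were pseudocounts of 0.5 and 1 CPM, a minimum mean of 5 CPM, other scalings, variance models and sample weights, replicate 10 as WT, and each replicate left out.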

Additional observations from a re-analysis of the deposited data

Results flagged for a closer look

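Each of the 26 genes was screened for a library far from the others of its group by Dixon's test, 52 groups in all, of which chance would flag about 2.6 (1 in 20). It flagged 8, and 7 of them were KO replicate 10. Every gene was read in the same 9 libraries, so these flags are not independent of each other. Over all genes, KO replicate 10 was the lowest library for 28.3% and the highest for 30.1%. That library was low for Slc6a11 (518 CPM, the other KO libraries 937 to 1027 CPM), Abat (530 CPM, the others 661 to 699 CPM), Glra1 (18.7 CPM, the others 35.8 to 41.6 CPM), Nlgn2 (233 CPM, the others 371 to 389 CPM) and Gabarap (67.2 CPM, the others 104 to 112 CPM). It was high for Gabarapl1 (590 CPM, the others 412 to 430 CPM) and Gabarapl2 (125 CPM, the others 103 to 108 CPM). The eighth was Gabbr1 in WT replicate 11, at 949 CPM beside 905 to 907 CPM in the other WT libraries. KO replicate 10 also had the lowest sample weight in limma, 0.129 against 0.749 to 2.44 for the other libraries. What sets this library apart was not tested.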

How the results depend on the processing

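None of the 26 genes, and none of the other pathway genes, passed the threshold in any of 18 alternatives, and the lowest adjusted p of any of the 26 in limma was 0.184, without KO replicate 10. Genes with an unadjusted p under 0.05 numbered 1, with 0 when the intensity trend was left out, 2 with sample weights and 0 to 2 when each replicate was left out in turn (0 without KO replicate 2 or 8 or WT replicate 1 or 3, and 2 without any other). Genes without overlap of the groups numbered 0, with 1 when replicate 10 was placed in WT and 0 to 2 when a replicate was left out (1 without KO replicate 6 or 10 or WT replicate 11, and 2 without WT replicate 9). The median fold change of -0.106 was 0.051 with replicate 10 in WT, -0.044 with sample weights and -0.138 to -0.025 with a replicate left out, the highest without KO replicate 10 and the next, -0.050, without WT replicate 3. Of 162 comparisons of the 9 genes given in full, 151 kept their direction. With replicate 10 in WT, Gad2 was at 0.19, Slc6a11 at 0.12, Gabrb1 at 0.10, Gabrq at 0.06, Gabbr1 at 0.04 and Gabarapl1 at -0.13. With 1 replicate left out, Gad2 ranged from -0.22 to 0.04 and Gabarapl1 from -0.04 to 0.09, and both changed sign without KO replicate 10. Gabarapl1 was also at -0.04 with sample weights. Nlgn2 ranged from -4.1e-03 to 0.18 and was below 0 without KO replicate 2 or WT replicate 9. Genes past the threshold over the whole table numbered 41, with 5 when replicate 10 was placed in WT, 135 with sample weights, 27 with the minimum mean of 5 CPM and 18 to 87 with a replicate left out. These fits differ in the weight or group of single libraries, and the cause of the changes was not tested. No paired analysis was possible because KO and WT share no replicate numbers.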

Other observations

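Among genes of the other lists, chosen here after their values were seen, the plasma membrane transporter genes Slc6a13 and Slc6a12 spanned a wide range within each group. Slc6a13, a GABA transporter known from the leptomeninges, was at 12.6, 12, 3.11, 19.7 and 2.47 CPM in KO replicates 2, 4, 6, 8 and 10 and at 2.35, 2.28, 9.7 and 2.2 CPM in WT replicates 1, 3, 9 and 11. Slc6a12, which carries betaine and GABA, was at 7.47, 5.54, 0.183, 10.2 and 1.04 CPM in KO and at 0.543, 1.04, 5 and 0.689 CPM in WT. Both were high in KO replicates 2, 4 and 8 and in WT replicate 9 and low in the other 5 libraries. Their log2 fold changes were 1.16 (SE 0.63, adjusted p = 0.803 in limma) and 1.04 (SE 0.98, adjusted p = 0.879), and without KO replicate 10 they were 1.55 (SE 0.51, unadjusted p = 0.00788 and adjusted p = 0.255 in limma) and 1.35 (SE 0.91, adjusted p = 0.657).

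In KO replicate 10, Shisa7, an auxiliary subunit of GABA-A receptors, was at 49.1 CPM, while it was at 146 to 180 CPM in KO replicates 2, 4, 6 and 8 and at 128 to 162 CPM in WT. Hap1, a neuronal protein that binds GABA-A receptors and is abundant in the hypothalamus, was at 1408 CPM there, while it was at 719 to 780 CPM in KO replicates 2, 4, 6 and 8 and at 676 to 725 CPM in WT. Both genes were chosen after their values were seen.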
